A study of Rattus norvegicus with 12 samples.

Results

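Gja1 and Gjb2, the genes of the gap junction proteins Cx43 and Cx26 of astrocytes, were followed through the 12 libraries of astrocytes (ASTRs) cultured from the brains of young adult female Wistar rats. They were chosen by name, Gja1 being listed as Cx43 among the cell type markers of the study, and are 2 of the 9394 genes in the deposited table that had passed a filter on low counts. The study asked whether ASTRs of grey and white matter differ, and sequenced 3′ ends of transcripts from 6 independent culture preparations of each kind. gmASTRs came from the cerebral cortex after the meninges had been removed. wmASTRs came from the tissue outside the cortex without the amygdala, which held white matter tracts, hippocampus, thalamus and deep grey matter, so that these cultures were mainly but not purely of white matter origin. Both kinds were untreated wild-type cells, were grown in serum-containing medium, passaged at least once and sequenced after 20 days in culture, and a gmASTR and a wmASTR culture were always prepared together from the same animal.

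Connexins are membrane proteins that assemble into rings of subunits, and a ring in the membrane of a cell docks to a ring in the membrane of its neighbour to form a channel. Ions, glucose, lactate and small messengers pass through these channels, and in the brain they couple astrocytes into networks that spread potassium and metabolites. Cx43, encoded by Gja1, is the main connexin of astrocytes, and is also made by ependymal, leptomeningeal and vascular wall cells. Cx26, encoded by Gjb2, is the beta connexin best known from the inner ear and is also abundant in the leptomeninges. Gja5 encodes a connexin of arterial endothelium.

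The 2 genes have unlike promoters, which are shown here because both genes are described below by their transcript levels. The 250 bases before the transcription start were taken from RefSeq (build GRCr8), and are written 5′ to 3′ in the direction of the gene. For Gja1 they lie at chr20:36302314-36302563 on the plus strand and for Gjb2 at chr15:35381954-35382203 on the minus strand. Capitals mark matches to the 5 motifs searched on both strands, which were the TATA box (TATAAA), its variant TTAAAA, the AP-1 site (TGAGTCA), the GC box (GGGCGG) and the E-box (CACGTG).
Gja1: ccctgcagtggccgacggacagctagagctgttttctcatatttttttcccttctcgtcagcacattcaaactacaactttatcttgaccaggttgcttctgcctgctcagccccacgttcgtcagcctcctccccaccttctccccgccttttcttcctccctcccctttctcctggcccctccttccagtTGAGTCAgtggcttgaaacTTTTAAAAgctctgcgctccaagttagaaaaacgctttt
Gjb2: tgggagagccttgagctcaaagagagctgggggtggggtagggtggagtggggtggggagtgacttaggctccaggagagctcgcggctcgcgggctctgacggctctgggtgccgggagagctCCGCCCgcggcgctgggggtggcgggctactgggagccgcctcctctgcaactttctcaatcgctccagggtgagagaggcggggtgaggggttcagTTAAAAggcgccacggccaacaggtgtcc
The Gja1 sequence holds TGAGTCA starting 58 bases before the start, a motif found in 4.05% of the 33469 promoters searched at this length. It also holds TTAAAA, which is present in 19.0% of promoters, on each strand in an overlapping stretch starting 39 bases before the start. The Gjb2 sequence holds TTAAAA starting 29 bases before the start and the GC box, read on the opposite strand, starting 126 bases before it (present in 30.5% of promoters). The bases G and C make up 51.2% of the Gja1 sequence and 67.2% of the Gjb2 sequence, the latter more than in 87.9% of promoters. No match to the letters of the TATA box (in 12.9% of promoters) or the E-box (in 5.59%) lay in either sequence. These matches describe the sequence alone, since the data hold no measurement of binding.

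The count of a gene is the number of 3′ end reads assigned to it, so that by design it does not grow with transcript length. Levels of different genes are set side by side on that basis. Whether the reads of each gene were captured and assigned equally well was not tested. Levels are given as CPM, in which each count is divided by the total count of its library and scaled to a total that is the same for all libraries. Each library held between 4896788 and 7169999 counts over the 9394 genes. The detection floor was set at 3 counts and came to at most 0.613 CPM. The library of gmASTR replicate 5 had low levels of some cell type markers described below and that of wmASTR replicate 4 had the lowest Gja1, although the gap of the latter to the next library was 0.506 of the range of its group, which is within the limit of Dixon's test for an outlier. The values of the members, and the correlations of the genes most like them over the 12 libraries, were also computed without each of these libraries. The marker lists, and the correlations given below after each kind's mean was subtracted, were not. Of the 12 astrocyte markers listed, 5 could be named in the tables. Gfap, the classical astrocyte filament gene, had 0 counts in all 6 gmASTR libraries, which allows up to 0.610 CPM, and between 1.39 and 10.6 CPM in wmASTRs. Aqp4, the astrocyte water channel, had at most 4 counts in a gmASTR library and between 2.36 and 5.10 CPM in wmASTRs. Slc1a3, a glutamate transporter of astrocytes, stood at 2.72 to 12.7 CPM in gmASTRs and 11.5 to 35.7 CPM in wmASTRs, and Aldoc, an aldolase of astrocytes, at 13.5 to 34.0 and 6.11 to 20.8 CPM. Fgfr3 stood at 0 to 6.44 CPM in gmASTRs and 0.139 to 3.50 CPM in wmASTRs. Gfap was thus not detected and Aqp4 at or near the floor in gmASTR libraries, and both were detected at low levels in wmASTR libraries. This concerns transcripts only, and by Western blot the study detected GFAP protein in both kinds of culture. The summed level of the 5 named markers was between 21.6 and 52.7 CPM in each library. In edgeR's quasi-likelihood test, at an FDR under 0.05, Gfap, Aqp4 and Slc1a3 were higher in wmASTRs, and Aldoc and Fgfr3 were not called. Of the 9394 genes 6.69% were called higher in wmASTRs, and of the 1593 with a name 6.97%. Gfap, Aqp4 and Fgfr3 were tested in the table before the filter, where 4.28% of 15478 genes were called so.

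Gja1 was among the most abundant transcripts of the cultures, and no difference between the kinds was detected. In gmASTR replicates 1 to 6 it stood at 5154, 5119, 4745, 4690, 5487 and 3680 CPM. In wmASTR replicates 1 to 6 it stood at 5797, 5342, 4285, 2226, 4648 and 4033 CPM. The highest and the lowest of the 12 values were both from wmASTRs, so that the gmASTR values lay within the range of the wmASTR values. Gja1 was in place 10 to 15 of all genes by count in each gmASTR library. It was in place 10 to 20 in wmASTRs except in wmASTR replicate 4, where it was in place 50. The mean was 4813 ± 627 CPM (SD, n = 6) in gmASTRs and 4389 ± 1247 CPM (n = 6) in wmASTRs. The coefficient of variation was 13.0% and 28.4%, respectively. In edgeR's quasi-likelihood test over all genes the log2 fold change of gmASTRs over wmASTRs was 0.08 (SE 0.17, FDR 0.835). Its 95% interval, from -0.27 to 0.43, corresponds to a level in gmASTRs between 0.827 and 1.34 times that in wmASTRs. Without wmASTR replicate 4 the wmASTR mean was 4821 ± 735 CPM (n = 5) and the log2 fold change was -0.06 (SE 0.12, 95% interval -0.32 to 0.20, FDR 0.831), so that even the sign of the small difference rested on that library.

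Gjb2 transcripts were far fewer and were higher in gmASTRs. In gmASTR replicates 1 to 6 Gjb2 stood at 65.3, 72.8, 108, 168, 55.7 and 192 CPM, from 293 to 1147 counts. In wmASTR replicates 1 to 6 it stood at 14.3, 24.4, 33.6, 11.3, 21.1 and 9.37 CPM, from 50 to 241 counts. The groups did not overlap, and the lowest gmASTR value, that of replicate 5, was 1.66 times the highest wmASTR value, that of replicate 3. Among the 9394 genes 2.69% had all gmASTR libraries above all wmASTR libraries. The mean was 110 ± 57.1 CPM (SD, n = 6) in gmASTRs and 19.0 ± 9.17 CPM (n = 6) in wmASTRs. The log2 fold change was 2.46 (SE 0.32, 95% interval 1.78 to 3.14), a 5.50-fold higher level in gmASTRs (interval 3.44 to 8.80). This passed edgeR's quasi-likelihood test with an FDR of 9.67e-05, in a comparison in which 5.64% of genes were called higher in gmASTRs and 12.3% were called in either direction at an FDR under 0.05. A two-sided exact permutation test over the 924 divisions of the libraries gave p = 0.00216, the smallest it can give. Gjb2 also varied widely within each kind of culture, with the highest library at 3.44 times the lowest in gmASTRs and 3.59 times in wmASTRs. By count it was in place 961 to 2837 of all genes in gmASTR libraries and in place 4035 to 6752 in wmASTR libraries.

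**Figure D1:**
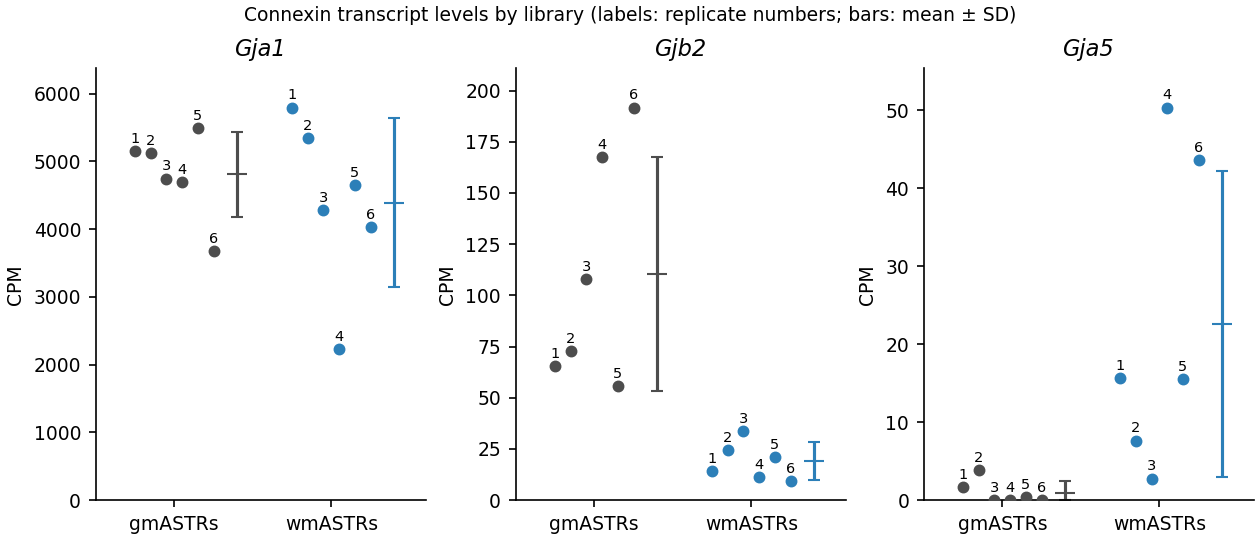
Levels of Gja1, Gjb2 and Gja5 in CPM (vertical axes, from 0, a scale for each gene) in the 6 gmASTR and 6 wmASTR libraries. Points are libraries with their replicate number, and bars are the mean ± SD of 6 libraries, cut at 0 for Gja5 in gmASTRs. Gja1 overlaps between the kinds, Gjb2 is higher in all gmASTR libraries (55.7 CPM or more) than in any wmASTR library (33.6 CPM or less), and Gja5 is highest in wmASTR replicates 4 and 6.

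In bulk RNA a lower level can come from fewer cells of a type or from less RNA per cell, and these cannot be told apart here. Some markers of leptomeningeal cells, which are the cells of the membranes that cover the cortex, were also higher in gmASTRs. Of 20 such genes listed 11 could be named, of which 5 (Foxc1, Foxc2, Foxd1, Cdh1 and Cldn11) were higher in gmASTRs and 2 (Mgp and Ptgds) were higher in wmASTRs at an FDR under 0.05. Of all 9394 genes 5.64% were called higher in gmASTRs and 6.69% higher in wmASTRs, but among the 1593 genes with a name, which are the only ones that a list can count, these shares were 28.8% and 6.97%. The median log2 fold change of the 11 was 1.03, against 0.65 over genes with a name and 0.02 over all genes tested. No named gene of the list was at 0 in every library of a kind. The summed level of the list ranged from 1162 to 6657 CPM in gmASTRs and from 1371 to 2741 CPM in wmASTRs. The mean of Cldn11, a tight junction claudin of arachnoid cells and of myelin, was 1852 ± 1442 CPM over gmASTR libraries, against 27.6 ± 28.0 CPM over wmASTR libraries. Among gmASTRs the sum was highest in replicates 4 and 6, which also had the most Gjb2, and lowest in replicate 5, which had the least Gjb2. Among wmASTRs it went otherwise, since the sum was lowest in replicates 2 and 3 (1371 and 1605 CPM), which had the most Gjb2, and highest in replicate 4 (2741 CPM), which was among the lowest in Gjb2. The most abundant gene of the list in wmASTRs was Mgp, a matrix protein, which stood at 1244, 922, 786, 2432, 1441 and 1585 CPM in wmASTR replicates 1 to 6 and at 340 to 575 CPM in gmASTRs. Without Mgp, a sum computed after the values had been seen, the wmASTR sums were 491, 454, 823, 325, 590 and 356 CPM in replicates 1 to 6, highest in replicate 3 and lowest in replicates 4 and 6, as for Gjb2. The order in between differed, since replicates 1 and 5 lay above replicate 2, which had more Gjb2 than either. The gmASTR sums without Mgp were 823 to 6086 CPM, still highest in replicates 4 and 6 and lowest in replicate 5, whose 823 CPM was as high as that of wmASTR replicate 3. In gmASTR replicate 5 Cldn11 stood at 112 CPM, against at least 693 CPM in the other gmASTR libraries, and Cdh1, the epithelial cadherin, at 87.7 CPM against at least 816 CPM. Without gmASTR replicate 5 the log2 fold change of Gjb2 was 2.58 (edgeR FDR 1.40e-05). Rarres2, the only named gene of 5 on the ependymal list, was also higher in gmASTRs (50.8 ± 17.5 and 25.6 ± 9.11 CPM, log2 fold change 0.92, edgeR FDR 0.0223), and was likewise highest in gmASTR replicates 4 and 6 and lowest in gmASTR replicate 5 among gmASTRs. The part of leptomeningeal or ependymal cells in the Gjb2 difference was not tested.

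Weighed against each other in the same library, the 2 connexins stood in different proportion in the 2 kinds of culture. For each Gjb2 count there were 78.9, 70.3, 43.9, 28.0, 98.5 and 19.2 Gja1 counts in gmASTR replicates 1 to 6. In wmASTR replicates 1 to 6 there were 407, 219, 127, 196, 221 and 430. All wmASTR ratios lay above all gmASTR ratios, from 127 upwards against 98.5 and below. The geometric mean was 48.4 in gmASTRs and 243 in wmASTRs, a 5.02-fold difference (log2 5.60 ± 0.92 and 7.92 ± 0.67, SD, n = 6 each; two-sided exact permutation test, p = 0.00216, the smallest possible). As no difference in Gja1 was detected, the ratio largely restates the difference in Gjb2 and is no separate support for it. Expressed as a share, Gjb2 made up between 1.01% and 4.95% of the counts of both genes in gmASTRs and between 0.232% and 0.778% in wmASTRs. The 95% Wilson intervals of the shares, which cover counting error only, did not overlap between gmASTR replicate 5 (0.897% to 1.13%) and wmASTR replicate 3 (0.686% to 0.882%), the nearest libraries of the kinds. Within kinds, the interval of gmASTR replicate 1 (1.12% to 1.40%) overlapped those of gmASTR replicates 2 (1.27% to 1.54%) and 5, and those of wmASTR replicates 2, 4 and 5 (0.454%, 0.507% and 0.451%) overlapped, as did those of wmASTR replicates 1 and 6 (0.245% and 0.232%). gmASTR replicates 3, 4 and 6 (2.22%, 3.45% and 4.95%) differed from each other by more than counting error.

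**Figure D2:**
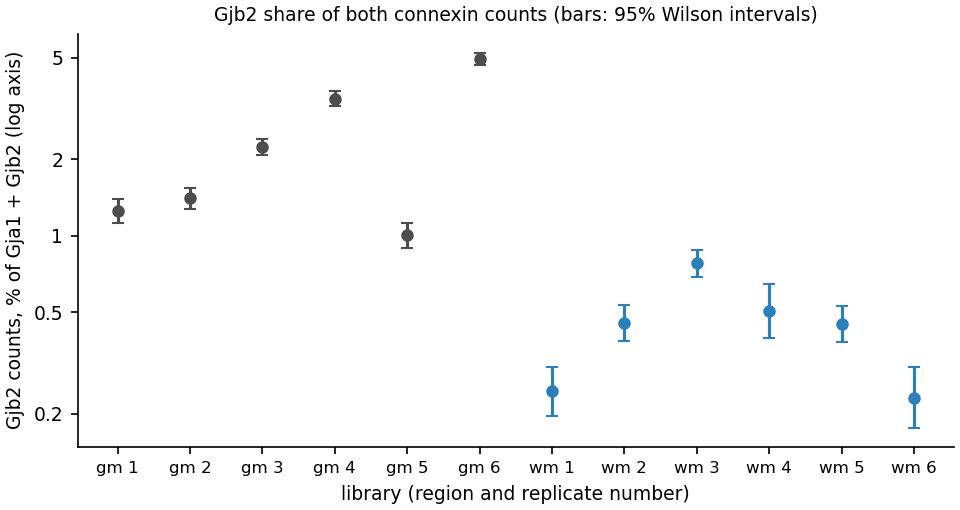
Gjb2 counts as a percentage of Gja1 and Gjb2 counts together (vertical log axis) in each of the 12 libraries (horizontal axis, gm and wm with the replicate number). Points are libraries and bars are 95% Wilson intervals for counting error, and the 6 gmASTR shares (1.01% to 4.95%) all lie above the 6 wmASTR shares (0.232% to 0.778%).

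Within gmASTRs the libraries with more Gjb2 had less Gja1. The order of the 6 libraries by Gjb2 (replicates 6, 4, 3, 2, 1 and 5 from the highest) was the exact reverse of their order by Gja1. Pearson's r of log2(CPM + 1) with TMM scaling was -0.920 over the 6 gmASTR libraries (exact permutation test, two-sided, p = 0.00139, adjusted 0.00556 over 4 tests). Spearman's rho was -1 (exact p = 0.00278, adjusted 0.00556), and r was -0.924 without replicates 4 and 6, the libraries farthest from the median of Gjb2. Within wmASTRs r was 0.353 (exact p = 0.5625, adjusted 0.75) and rho was 0.143 (exact p = 0.803, adjusted 0.803, n = 6), so that no relation was detected. Leaving out wmASTR replicates 3 and 6, the farthest from the median, gave 0.647, and leaving out wmASTR replicate 4 alone gave -0.101. Whether the relation differs between the kinds was not tested. The spans of the 2 genes in gmASTRs were unequal, since Gja1 varied 1.49-fold and Gjb2 3.44-fold between libraries. Other genes of these 6 libraries were compared with the members in the same way. Of 5359 other genes with a mean of at least 20 CPM, 2.35% had a correlation with Gjb2 in gmASTRs at or below -0.920 and 0.877% had 0.920 or above. With Gja1 these shares were 0.709% and 2.26%. This comparison of the genes with each other was added after their values had been seen.

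**Figure D3:**
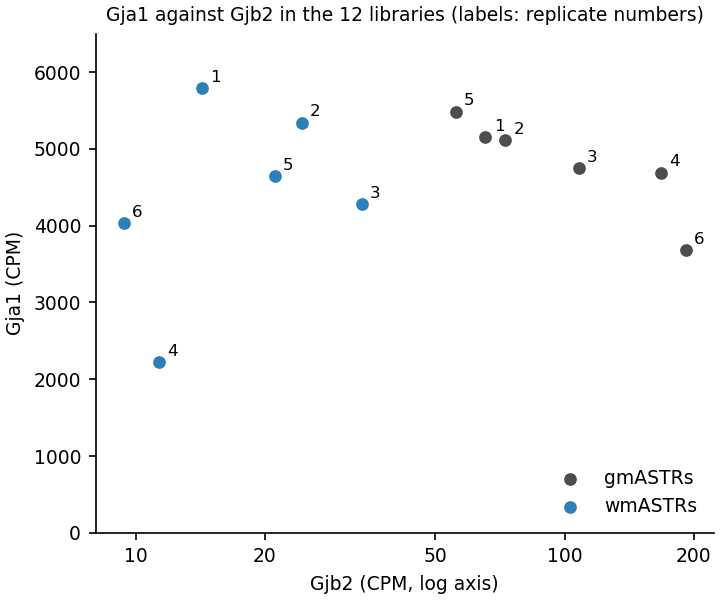
Gja1 (vertical axis, CPM) against Gjb2 (horizontal log axis, CPM) in the 12 libraries, labelled by replicate number. In the 6 gmASTR libraries (grey) Gja1 falls from 5487 to 3680 CPM as Gjb2 rises from 55.7 to 192 CPM, whereas the 6 wmASTR libraries (blue) show no such order and wmASTR replicate 4 lies lowest.

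Of 22 connexin and pannexin genes listed, 3 could be named in the tables, and the remaining 19, among them Gjb6, the other beta connexin of astrocytes, were not analysed here. Besides Gja1 and Gjb2 this was Gja5, which stood only in the table before the filter and was tested among its 15478 genes with at least 1 count, of which 7.73% were called at an FDR under 0.05 (3.46% as higher in gmASTRs and 4.28% as higher in wmASTRs). Of the 3 genes 1 (Gjb2) was higher in gmASTRs, 1 (Gja5) was higher in wmASTRs and 1 (Gja1) was not called, with a median log2 fold change of 0.08, against 0.02 over all genes tested. In the filtered table a name was known for 1593 genes, and 91.8% of these had a positive log2 fold change (median 0.65), against 44.0% of the 7801 without a name (median -0.05), so the count says nothing of connexins as a family.

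Gja5 was higher in wmASTRs. It had 8, 22, 0, 0, 2 and 0 counts in gmASTR replicates 1 to 6 and 85, 46, 20, 286, 107 and 234 counts in wmASTR replicates 1 to 6. In CPM these were at most 3.81 in gmASTRs, and 15.7, 7.65, 2.78, 50.3, 15.5 and 43.6 in wmASTRs. The kinds overlapped only in that wmASTR replicate 3 (2.78 CPM) lay below gmASTR replicate 2 (3.81 CPM), and wmASTR replicates 4 and 6 lay far above the rest. The mean was 0.969 ± 1.53 CPM (n = 6) in gmASTRs and 22.6 ± 19.6 CPM (n = 6) in wmASTRs, and the log2 fold change was -4.59 (SE 0.79, edgeR FDR 0.000308). Of the 32 gmASTR counts 22 were in replicate 2, and without that library the log2 fold change was -5.92 (edgeR FDR 9.04e-05). In wmASTR replicates 4 and 6 Gja5 had more counts than Gjb2 (286 against 64 and 234 against 50), and in gmASTRs Gjb2 had the higher count in each of the 6 libraries.

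Some markers of vascular cells were also higher in wmASTRs, as were markers of other cell types. Of 10 endothelial genes listed 4 could be named, and 1 of them, Esam, an adhesion molecule of endothelium, was higher in wmASTRs, with none higher in gmASTRs, against 6.69% and 5.64% of all genes and 6.97% and 28.8% of genes with a name. Esam stood at 21.8, 24.5, 40.7, 295, 41.4 and 221 CPM in wmASTR replicates 1 to 6 and at most at 12.7 CPM in gmASTRs, so that the libraries with the most Gja5 also had the most Esam. The summed endothelial level ranged from 16.4 to 77.3 CPM in gmASTRs and from 38.9 to 316 CPM in wmASTRs. The median log2 fold change of these 4 genes was 0.11. Slco1a4, a transporter of brain endothelium (22.3 ± 19.9 and 13.5 ± 7.21 CPM in gmASTRs and wmASTRs), Tek, a receptor kinase of endothelium (2.15 ± 2.09 and 1.25 ± 0.717 CPM), and Egfl7 (7.84 ± 5.72 and 10.4 ± 5.75 CPM) were not called. By library Slco1a4 and Tek did not follow Gja5. In wmASTR replicate 4, with the most Gja5, Slco1a4 was the lowest of all 12 libraries (1.06 CPM). Tek was there the lowest of the wmASTRs (0.528 CPM). Egfl7 followed Gja5 in part, being highest in wmASTR replicate 4 (21.6 CPM) but at 7.87 CPM in wmASTR replicate 6. Among gmASTRs Egfl7 was highest in replicates 1 and 2 (16.3 and 13.6 CPM), as was Gja5. Of 9 genes of pericytes and smooth muscle 2 could be named, Myh11 and Des, the genes of smooth muscle myosin and desmin, and both were higher in wmASTRs, with a summed level of 29.2 to 172 CPM in gmASTRs and 376 to 943 CPM in wmASTRs. The highest of these sums was that of wmASTR replicate 4, which had the least Gja1 of all libraries and the most Gja5. Of the microglial genes (5 of 11 named) 4 were higher in wmASTRs, with a summed level of 3.48 to 51.4 CPM in gmASTRs and 85.4 to 280 CPM in wmASTRs. Of the genes of the oligodendrocyte lineage (5 of 10 named) 4 were also higher in wmASTRs, with sums of 78.9 to 122 and 153 to 259 CPM. Ttr, the transthyretin of choroid plexus and the only named gene of 7 on that list, was at most at 3.98 CPM in gmASTRs and at 4.65 to 376 CPM in wmASTRs. The genes of neurons (2 of 6 named) were split, with Syt1 higher in gmASTRs and Tubb3 higher in wmASTRs. Their sums were 14.9 to 34.5 CPM in gmASTRs and 13.1 to 39.4 CPM in wmASTRs. wmASTR replicate 4 had the highest microglial sum, at 280 CPM against at most 112 CPM elsewhere, the highest oligodendrocyte sum, at 259 CPM against at most 221 CPM, and the most Gfap, at 10.6 CPM against at most 2.58 CPM. The part of any of these cells in the levels of Gja5 and Gja1 was not tested.

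Transcripts of proteins that bind or modify connexins were measured for 5 of 25 genes listed, which were 3 of 7 scaffold and cytoskeletal partners, 2 of 9 kinases and none of 9 trafficking and degradation genes. At an FDR under 0.05 (12.3% of all genes, 5.64% higher in gmASTRs and 6.69% higher in wmASTRs, with 28.8% and 6.97% among genes with a name) 1 was higher in gmASTRs, 1 was higher in wmASTRs and 3 were not called. Cdk1, the mitotic kinase that phosphorylates Cx43 in dividing cells, stood at 117, 145, 154, 144, 71.1 and 165 CPM in gmASTR replicates 1 to 6 and at 83.3, 86.5, 69.3, 46.2, 59.7 and 55.3 CPM in wmASTR replicates 1 to 6. The kinds overlapped only through gmASTR replicate 5, and the log2 fold change was 0.92 (SE 0.18, edgeR FDR 0.00238).

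Nov, a matricellular protein that binds the tail of Cx43, went the other way. It stood at 85.4, 67.6, 84.7, 101, 10.7 and 87.7 CPM in gmASTR replicates 1 to 6 and at 138, 139, 138, 314, 117 and 200 CPM in wmASTR replicates 1 to 6. The kinds did not overlap (3.09% of all genes had all wmASTR libraries above all gmASTR libraries), wmASTR replicate 4 was highest and gmASTR replicate 5 was lowest by far. The log2 fold change was -1.34 (SE 0.34, edgeR FDR 0.0139), a 2.54-fold higher level in wmASTRs. The 3 partners not called were Ezr, a linker of membrane and actin (22.9 ± 9.62 and 14.9 ± 7.08 CPM, FDR 0.310), Prkca, a protein kinase C (13.7 ± 1.91 and 7.87 ± 1.92 CPM, FDR 0.103), and Cttn, the gene of cortactin, with at most 12 counts in a library (FDR 0.818). Prkca did not overlap between the kinds, though only narrowly, with 10.8 CPM or more in gmASTRs and 10.5 CPM or less in wmASTRs (2.69% of all genes had all gmASTR libraries above all wmASTR libraries).

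**Figure D4:**
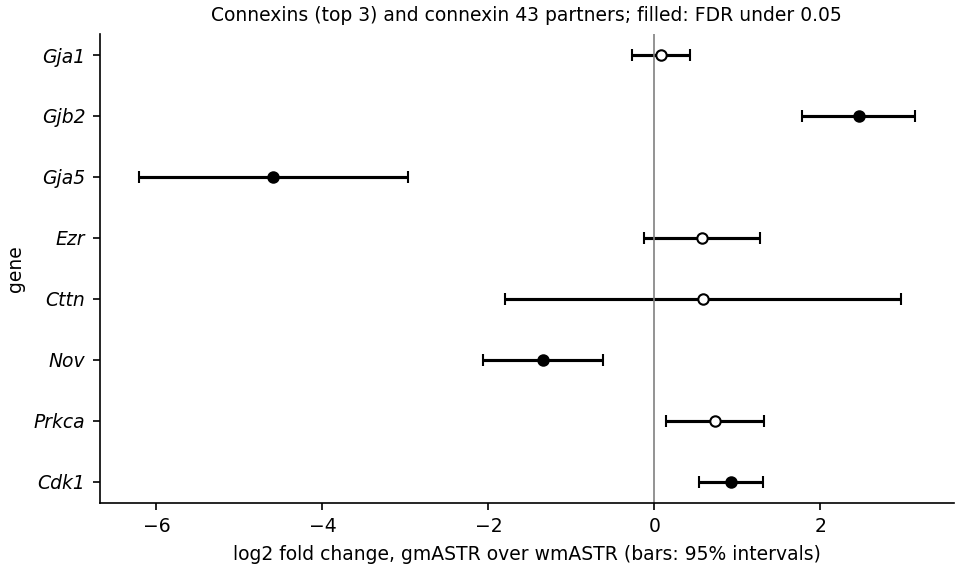
Log2 fold change of gmASTRs over wmASTRs (horizontal axis) for the 3 connexins and the 5 partners of Cx43 that could be named, with 95% intervals of edgeR's quasi-likelihood fit and filled points for an FDR under 0.05. The interval of Gja1 (-0.27 to 0.43) is narrow and holds 0, Gjb2 (2.46) lies on the gmASTR side, and Gja5 (-4.59) and Nov (-1.34) lie on the wmASTR side.

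The patterns of the members over the 12 libraries were compared with those of 717 named genes with a mean of at least 20 CPM, by Pearson's r of log2(CPM + 1) with TMM scaling. These correlations describe libraries that fall into 2 kinds, and they were also computed after each kind's mean had been subtracted. The genes most like Gjb2 were Pla2g16, a phospholipase (r = 0.977), Emp1, an epithelial membrane protein (0.967), Sema3d, a secreted semaphorin (0.962), Col9a2, a chain of collagen IX (0.960), and Snai2, a zinc finger repressor of mesenchymal cells (0.959). All 5 were higher in gmASTRs, with log2 fold changes of 0.86 (Pla2g16), 1.07 (Emp1), 2.86 (Sema3d), 2.54 (Col9a2) and 2.08 (Snai2), a direction that follows in part from choosing them for likeness to Gjb2. Genes with a name also leaned this way. Of 1593 such genes 91.8% had a positive log2 fold change and 28.8% were called higher in gmASTRs. Once the means of the kinds were subtracted, Pla2g16 (0.920) stayed first among the 5 most like genes. It was joined by Tmeff1 (0.899), a membrane protein with follistatin modules, Foxc1 (0.863), a forkhead factor of the meninges and vessel wall, Igsf3 (0.859), an immunoglobulin superfamily protein, and Knl1 (0.853), a kinetochore protein of dividing cells.

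Pla2g16 shows how close the likeness was and how different the spans were. In gmASTR replicates 1 to 6 Pla2g16 stood at 605, 635, 691, 795, 450 and 936 CPM, and in wmASTR replicates 1 to 6 at 337, 398, 488, 272, 363 and 308 CPM. The order of the gmASTR libraries was the same as for Gjb2, with replicates 6 and 4 highest and replicate 5 lowest. Among wmASTRs replicate 3 was highest and replicates 4 and 6 were lowest, as for Gjb2. Foxc1, which is also on the leptomeningeal list, ranged from 276 to 629 CPM in gmASTRs and from 208 to 340 CPM in wmASTRs.

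The genes most like Gja1 were Tspan4, a tetraspanin (0.810), Cyp26b1, an enzyme that degrades retinoic acid (0.792), Sh3bp5 (0.757), Car3, a carbonic anhydrase (0.713), and Itgbl1, an integrin-like protein (0.701). With the means of the kinds subtracted they were Itgbl1 (0.828), Tspan4 (0.817), Igfbp2, which binds insulin-like growth factors (0.798), Ydjc (0.786) and Cyp26b1 (0.785). These last values were not computed with a library left out. Of the first 5, r with Gja1 was between 0.297 (Sh3bp5) and 0.966 (Car3) over the gmASTR libraries alone and between 0.869 (Sh3bp5) and 0.960 (Car3) over the wmASTR libraries alone. wmASTR replicate 4, which had the least Gja1, was also lowest for most of these genes. Without it r over 11 libraries was 0.454 for Tspan4, 0.731 for Cyp26b1, 0.188 for Sh3bp5, 0.749 for Car3 and 0.178 for Itgbl1, so that for Tspan4, Sh3bp5 and Itgbl1 the likeness rested on that library. Without gmASTR replicate 5 r was 0.666 (Itgbl1) to 0.929 (Cyp26b1). For the 5 genes most like Gjb2 r was at least 0.952 when either library was left out. In wmASTR replicate 4 Tspan4 stood at 1.06 CPM against at least 8.16 CPM in all others, Cyp26b1 at 472 CPM against at least 730 CPM, and Igfbp2 at 755 CPM against at least 1786 CPM.

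**Figure D5:**
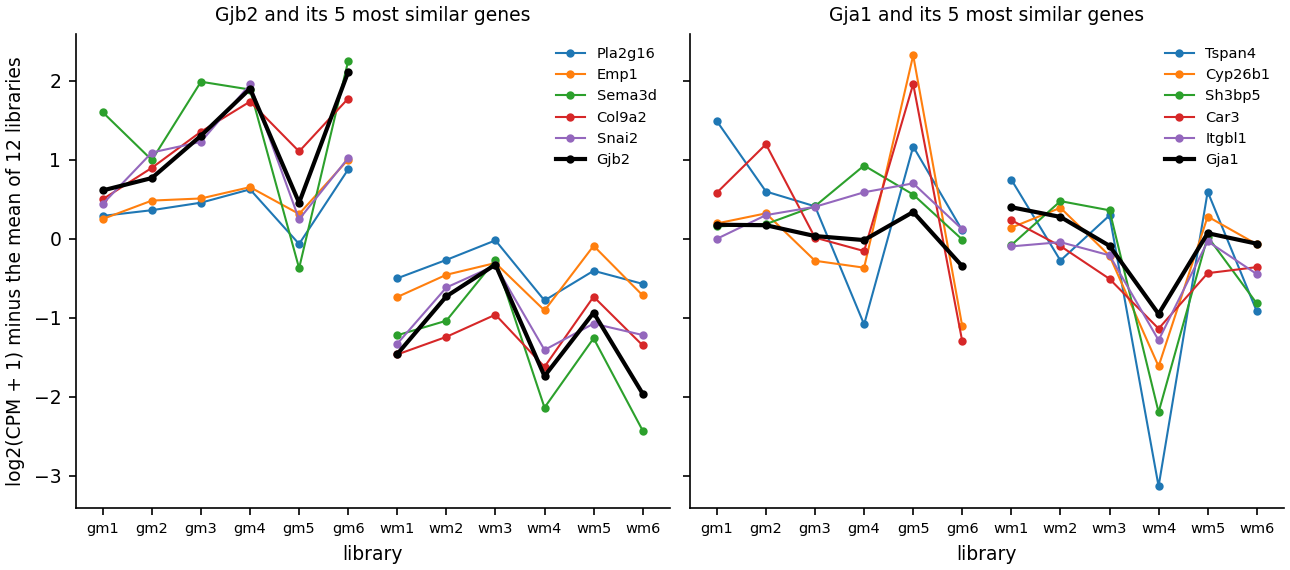
Profiles of Gjb2 (left) and Gja1 (right), in black, with the 5 genes of most similar pattern over the 12 libraries, as log2(CPM + 1) minus the mean of the 12 libraries (vertical axis) by library (horizontal axis, gm and wm with the replicate number). The Gjb2 group drops from gmASTRs to wmASTRs and dips at gmASTR replicate 5. Gja1 and the genes shown with it are lowest at wmASTR replicate 4, except Car3, which is lowest at gmASTR replicate 6.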

How the data were processed

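The authors prepared 3′ mRNA libraries from 12 cultures, aligned the reads with HISAT (0.1.5), used SAMtools (1.2) for sorting and assigned reads to rat Ensembl genes with HTSeq (0.6.1p1) in union mode, ignoring strand. The deposited values are unnormalized read counts for 17941 genes and, after the authors' filter on low counts, for 9394 genes. Molecular identifiers were not mentioned, so intervals do not cover duplicate reads. The labels give the build as GRCm38, a mouse name.

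Genes were tested with edgeR (4.0.16, R 4.3.3) by its quasi-likelihood method, with TMM scaling, region as factor, prior count 0.125 and Benjamini-Hochberg adjustment over all genes of the table (FDR, threshold 0.05). CPM used the total of the table in which a gene was tested. Ratios had 0.5 added to each count. Exact permutation tests were two-sided. Alternatives used DESeq2 (1.42.0), limma (3.58.1), other scalings and filters, each library left out and a replicate block. Python (3.11.15), numpy (2.4.6), pandas (2.3.3), scipy (1.17.1) and matplotlib (3.10.9) were used otherwise. The edgeR step was tested on simulated data.

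Gene names came from the study's supplementary tables, for 2010 genes by identifier and for 85, among them Gja1 and Gfap, by equality of 12 counts (within 0.3% or 0.05 counts), and 1593 of the 9394 genes had a name. The authors' own comparisons were not used, and a few genes that the rules would name are not reported here. Genes given are both members, each connexin with a known name and counts, the named partners of Cx43, for each member the 5 named genes of highest correlation, and named genes of the marker lists. Members, lists and tests were chosen with earlier results of these data known.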

Additional observations from a re-analysis of the deposited data

How the results depend on the processing

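Gjb2 was called higher in gmASTRs in each of the 20 alternatives, with a log2 fold change of 2.23 to 2.69 when a library was left out and 2.40 to 2.53 with other tests, scalings and filters. Gja1 was called in none of its 20 alternatives, with a log2 fold change of -0.06 to 0.17 when a library was left out, the lowest (-0.061) without wmASTR replicate 4, and 0.07 to 0.13 otherwise. The log2 ratio of Gja1 to Gjb2 differed by -2.53 to -2.06 when a library was left out. Within gmASTRs the correlation of Gja1 with Gjb2 was -0.983 to -0.889 when a library was left out and -0.876 without TMM scaling, and within wmASTRs it was -0.101 to 0.522 (-0.101 without wmASTR replicate 4) and 0.416. These last alternatives were chosen after seeing the data. Gja5 was called in each of its 19 alternatives (log2 fold change -5.92, without gmASTR replicate 2, to -4.18 when a library was left out). The number of Cx43 partners called was 2 in each alternative.

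Without scaling beyond the total count, 691 genes were called higher in gmASTRs and 533 in wmASTRs, against 530 and 628 with TMM, and the median log2 fold change of all genes was 0.09 instead of 0.02.

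No source used here says whether a replicate number joins the gmASTR and wmASTR cultures of 1 animal. Libraries of the same number did not deviate together (correlations of -0.0324 to 0.0112, and 0 of 6 gmASTR libraries correlated best with their own number). With the replicate block the log2 fold change was 2.40 for Gjb2 (edgeR FDR 0.00151) and 0.12 for Gja1 (FDR 0.685). With the block no call changed for Gja1, Gjb2, Gja5 or the 5 partners of Cx43. The marker genes and the genes of similar pattern were not followed under the block. For the ratio, swaps within numbers gave an exact p of 0.03125, the smallest they can give. The block lowered the genes called at an FDR under 0.05 from 1158 to 970.

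Counts of Cttn were too low to show a change of moderate size, and for the connexins and partners without a name no value is given.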
